A study of Mus musculus with 9 samples.

Results

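The 10 genes described here, H2-K1, H2-D1, H2-T23, B2m, Tap1, Tap2, Tapbp, Psmb8, Psmb9 and Nlrc5, make up the core of the machinery that presents peptides on major histocompatibility complex (MHC) class I molecules. They were chosen by name from a fixed list, which was drawn up with earlier results of these data known. All 10 were found among the 39179 Ensembl genes of the count tables and were among the 13418 genes that passed the filter on low counts. RNA came from single capillaries with their surrounding cells, cut by laser microdissection (LMD) from the ossification front (OF) of the femur, the zone below the growth plate where new bone forms. Juvenile mice were 4 weeks old (n = 5 libraries) and adult mice were 12 weeks old (n = 4 libraries). Mice of both ages carried the Tg(TIE2GFP)287Sato/J reporter, in which the Tie2 promoter drives GFP in endothelial cells. The labels give C57BL/6 as the mouse origin, and neither age received a treatment. GFP only guided the laser, so each library holds RNA from every cell in the cut pieces.

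MHC class I molecules sit on nearly all nucleated cells and show fragments of the cell's own proteins to CD8+ T cells. The immunoproteasome cuts proteins into peptides, the TAP transporter moves the peptides into the endoplasmic reticulum, and tapasin helps to load them onto a heavy chain that is paired with beta-2-microglobulin. Interferons raise the expression of most of these genes, and the transactivator NLRC5 acts on the promoters of the heavy chains, B2m, Tap1 and Psmb9. In bone marrow, leukocytes carry more class I than stromal cells do, and endothelial cells carry it as well.

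Promoter sequences are shown because the 3 most abundant members share the letters through which class I genes are known to be regulated. RefSeq start sites of build GRCm38.p6 were available for 8 of the 10 members, and those of Tap2 and Nlrc5 were not in the table used. The 250 bases before each start were searched on both strands for AANNGAAA (the core bound by interferon regulatory factors), GGGANTNCC (an NF-kappaB site), TGACG (the core of a cAMP response element) and CCAAT. Among 32851 promoters of the same length, 21.3%, 3.36%, 17.8% and 33.8% held these motifs, respectively. Capitals below mark the matches, including those that read on the opposite strand, and each sequence runs 5′ to 3′ in the direction of its gene. The first lies upstream of H2-K1 at chr17:34000348-34000597 (minus strand), and the second upstream of B2m at chr2:122147437-122147685 (plus strand). Both lie outside annotated exons.
H2-K1 promoter: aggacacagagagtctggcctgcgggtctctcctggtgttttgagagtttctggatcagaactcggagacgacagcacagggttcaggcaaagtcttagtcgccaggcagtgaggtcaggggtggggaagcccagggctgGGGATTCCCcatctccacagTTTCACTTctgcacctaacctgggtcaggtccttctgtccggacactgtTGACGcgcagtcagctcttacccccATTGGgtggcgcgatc
B2m promoter: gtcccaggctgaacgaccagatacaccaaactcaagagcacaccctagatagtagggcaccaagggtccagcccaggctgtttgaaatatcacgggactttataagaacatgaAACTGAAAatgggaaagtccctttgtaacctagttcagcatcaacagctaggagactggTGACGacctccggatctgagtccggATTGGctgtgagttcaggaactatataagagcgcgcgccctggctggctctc

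In H2-K1, H2-D1 and B2m, TGACG was followed after exactly 20 bases by an inverted CCAAT box (ATTGG). Both motifs belong to the module on which NLRC5 is known to act. The stretches are printed to compare the spacing and lie at chr17:34000359-34000388 (minus strand), chr17:35262993-35263022 (plus strand) and chr2:122147609-122147638 (plus strand). The stretch of H2-D1 lies in an exon of a longer GENCODE transcript of the same gene.
H2-K1: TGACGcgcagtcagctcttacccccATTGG
H2-D1: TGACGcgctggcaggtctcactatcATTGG
B2m: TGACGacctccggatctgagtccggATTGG
This pair with this spacing, on either strand, was found in 30 of 32851 promoters (0.0913%), which belong to 26 genes. Among these genes H2-M3, another class I heavy chain, also occurs, and its counts overlapped between the ages. Most of the 26 genes are not class I genes, among them Per1, Calu and Ibsp, an osteoblast gene that was higher in juvenile mice. The spacing searched for was the one found in these members.

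In H2-K1 and H2-D1 the NF-kappaB motif, which reads the same on both strands, was followed after 11 bases by an inverted interferon regulatory factor core. These stretches lie at chr17:34000430-34000457 and chr17:35262924-35262951.
H2-K1: GGGATTCCCcatctccacagTTTCACTT
H2-D1: GGGATTCCCcatctcctcagTTTCACTT
This pair occurred in 5 of 32851 promoters (0.0152%), those of H2-K1, H2-D1, H2-Q4 and H2-Q6. Its spacing was likewise taken from the members. H2-T23 and B2m held the interferon regulatory factor core without a match to GGGANTNCC, and Psmb8 held 0 of the 4 motifs in this window. NF-kappaB sites of other letters or lengths were not searched for, so their absence from these windows is not shown. The windows of Psmb8, H2-D1, Tap1, Psmb9 and Tapbp lie wholly within annotated exons, and bases further upstream were not searched. Psmb9 and Tap1 start 225 bases apart and point away from each other, so their promoter windows overlap and hold the same TGACG and the same CCAAT match. Matches are a description of the letters, and no binding was measured here.

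**Figure D1:**
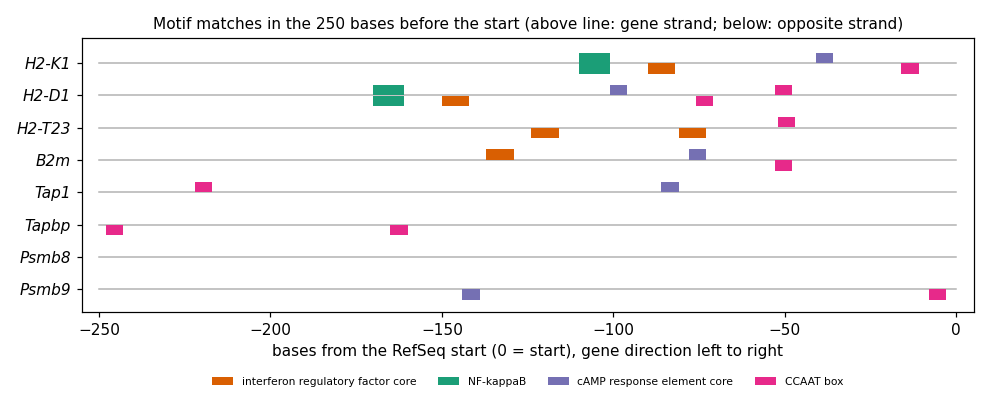
Positions of the 4 motifs (coloured boxes) in the 250 bases before the RefSeq start of 8 members. The x axis gives the distance from the start in bases, boxes above a line match the gene strand and boxes below it the opposite strand. H2-K1 and H2-D1 show the same order of motifs, which begins 110 bases before the start in H2-K1 and 170 bases before it in H2-D1.

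The libraries held 4856833 to 7398483 counts in juvenile and 5821596 to 8077362 counts in adult mice. Counts were scaled by TMM to normalized counts, and edgeR's quasi-likelihood test over all 13418 genes served to compare the ages. In this test a gene was called at a Benjamini-Hochberg adjusted p under 0.05. Log2 fold changes are juvenile over adult, so that negative values mean higher levels in adult mice. Endothelial markers were detected at both ages, with 10 of 10 tested and 0 called in edgeR, and summed to 664 to 1023 CPM (reads relative to the TMM-scaled library size) in juvenile and 814 to 1027 CPM in adult libraries. Juvenile replicates 4 and 5 had 524 and 439 counts of the Y-linked gene Ddx3y and at most 11 of Xist, while the other 7 libraries had at least 2965 of Xist. Sex, as read from these genes, was therefore not balanced between the ages and is partly confounded with age. Adult replicate 2 stood apart with 103 CPM of summed neutrophil markers, against 3489 to 4336 CPM in the other adult libraries. Results are therefore also given without these libraries.

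H2-K1, H2-D1, B2m, Tap1 and Psmb9 were higher in adult capillaries with their surrounding cells, by 2.01-fold for H2-D1 to 4.18-fold for Psmb9. All 10 members had a negative log2 fold change, these 5 were called higher in adult mice and 0 were called higher in juvenile mice by edgeR. Of all genes tested, 1.89% were called higher in adult and 1.99% in juvenile mice. The median log2 fold change was -1.02 over the members and -0.01 over all genes tested. In 6 of the 10 members every adult library lay above every juvenile library, which was so for 4.08% of all genes tested. Summed, the members accounted for 0.278% to 0.367% of all counts in juvenile and for 0.457% to 0.877% in adult libraries. In RNA from whole pieces, fewer cells of a type and less RNA per cell cannot be told apart. Without juvenile replicates 4 and 5, edgeR called 0 of the 10 members, with a smallest adjusted p of 0.0828. Of the 10, 7 had an unadjusted p under 0.05, but the share of all tested genes at this threshold is not given here. Log2 fold changes in this fit stayed similar in size (H2-K1 -1.02, H2-D1 -0.88, B2m -0.90, Tap1 -1.25 and Psmb9 -2.07). Without adult replicate 2, 6 members were called, Psmb8 being added.

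H2-K1 and H2-D1 encode classical heavy chains, which bind the peptide and meet the T cell receptor. Both are highly polymorphic, and whether the reporter mice carried the MHC haplotype of the C57BL/6 reference was not tested, so the counts of heavy chains are uncertain in this respect. H2-K1 (ENSMUSG00000061232, chr17:33996017-34000347, GRCm38) had 3780, 3636, 3793, 3486 and 3972 normalized counts in juvenile replicates 1 to 5. In adult replicates 1 to 4 it had 7647, 5212, 9746 and 7832. The juvenile libraries were closely grouped and all lay below the lowest adult library, which was replicate 2. Means were 3734 ± 183 (SD, n = 5) and 7609 ± 1859 (SD, n = 4), a log2 fold change of -1.03 ± 0.17 (SE, edgeR, adjusted p = 0.00692), or 2.04-fold higher in adult mice.

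H2-D1 (ENSMUSG00000073411, chr17:35262730-35267499) had 8617, 10623, 9537, 7641 and 7378 normalized counts in the juvenile libraries. The adult libraries had 19517, 11100, 22733 and 17229. The ages did not overlap, but adult replicate 2 lay only slightly above juvenile replicate 2. The log2 fold change was -1.01 ± 0.20 (SE, edgeR, adjusted p = 0.0151), or 2.01-fold higher in adult mice. Reads of class I heavy chains can be shared between genes. Of the 75-base words in the transcripts of H2-K1, H2-D1 and H2-T23, 3.10%, 5.56% and 5.91% also occurred in transcripts of another gene, and the read length was 75 bases.

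H2-T23, a nonclassical heavy chain whose product is read by receptors of natural killer (NK) cells, had far lower counts. Juvenile libraries had 226, 139, 190, 245 and 222 normalized counts and adult libraries 255, 307, 301 and 418. The ages did not overlap, yet the lowest adult and the highest juvenile library were close. H2-T23 was not called, with a log2 fold change of -0.65 ± 0.27 (SE, edgeR, adjusted p = 0.226).

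B2m encodes beta-2-microglobulin, the light chain that class I heavy chains generally need to reach the cell surface in normal amounts. It lies apart from the MHC, at chr2:122147686-122153083 (ENSMUSG00000060802). Normalized counts were 6380, 8514, 8551, 6607 and 5678 in juvenile and 16280, 9935, 17503 and 14908 in adult libraries. All adult libraries were above the juvenile ones, with adult replicate 2 again the lowest. The log2 fold change was -1.04 ± 0.19 (SE, edgeR, adjusted p = 0.0117), or 2.05-fold higher in adult mice. B2m shared 0% of its 75-base words with another gene. Per kilobase of exon, B2m had 1324 ± 243 CPM (SD, n = 5) in juvenile and 2715 ± 615 CPM (SD, n = 4) in adult mice, the highest level of the 10 members. H2-D1 followed with 541 ± 83.2 and 1090 ± 304 CPM per kilobase, and H2-K1 with 202 ± 9.90 and 413 ± 101 CPM per kilobase. The other 7 members had at most 32.0 CPM per kilobase on average at either age. In adult mice they followed in the order Psmb8 (32.0 ± 12.8), Tapbp (29.2 ± 11.5), H2-T23 (17.7 ± 3.795), Tap2 (10.8 ± 2.90), Tap1 (10.4 ± 2.35), Psmb9 (10.3 ± 4.66) and Nlrc5 (CPM per kilobase, SD, n = 4). Psmb8 and Tapbp, and likewise Tap2, Tap1 and Psmb9, lay within their SDs of each other. Exon length was the union of all annotated exons of a gene, such as 860 bases for B2m, 2938 for H2-K1 and 3381 for Psmb8. Levels per kilobase and their order therefore depend on the annotation.

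The proportions of these chains overlapped between the ages, a comparison chosen after the counts were seen. B2m per exon length was 1.57 to 1.99 times the summed H2-K1 and H2-D1 per exon length in juvenile libraries and 1.68 to 1.90 times in adult libraries. H2-D1 per exon length was 2.12 to 3.33 times H2-K1 in juvenile and 2.43 to 2.91 times in adult libraries. The sizes of these ratios depend on the annotated exon lengths.

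**Figure D2:**
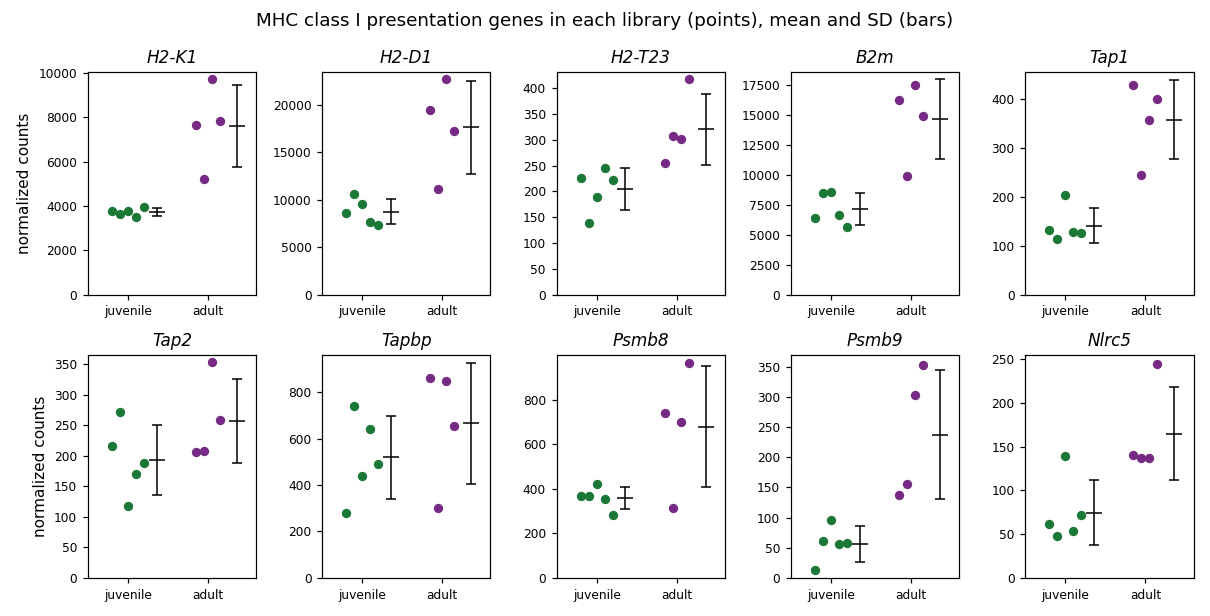
Normalized counts (y axis, from 0) of the 10 members in 5 juvenile (green) and 4 adult (purple) libraries, with replicates in order from left to right. Horizontal marks are means and bars are SDs, and the ages do not overlap for H2-K1, H2-D1, H2-T23, B2m, Tap1 and Psmb9.

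Of the genes for peptide transport and loading, Tap1 was called and Tap2 and Tapbp were not. Tap1 and Tap2 encode the chains of the TAP transporter. Tap1 (ENSMUSG00000037321, chr17:34187553-34197225) had 133, 114, 204, 128 and 125 normalized counts in juvenile and 429, 245, 358 and 400.3 in adult libraries. Every adult library was higher, and juvenile replicate 3 was the highest juvenile library. The log2 fold change of Tap1 was -1.35 ± 0.29 (SE, edgeR, adjusted p = 0.0217), or 2.54-fold higher in adult mice. Its call was lost without juvenile replicate 2, 4 or 5 or adult replicate 4, with adjusted p-values of 0.0535 to 0.0629 (edgeR).

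Tap2 (ENSMUSG00000024339, chr17:34203527-34216321) had 216, 272, 118, 171 and 188 normalized counts in juvenile and 206, 209, 353 and 259 in adult libraries. The ages overlapped, and Tap2 was not called, with a log2 fold change of -0.41 ± 0.31 (SE, edgeR, adjusted p = 0.582). The difference between Tap1 and Tap2 was not tested. Tap2 shares 533 exon bases with the antisense gene Gm15821, and without a stated strand setting reads of such partners cannot be told apart.

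Tapbp encodes tapasin, which holds an empty heavy chain at the transporter. Juvenile libraries had 281 to 742 normalized counts (median 492) and the adult libraries 862, 301, 847 and 654. The ages overlapped widely. Tapbp was not called, with a log2 fold change of -0.36 ± 0.33 (SE, edgeR, adjusted p = 0.664). It shares exon bases with Zbtb22 on the same strand, and 18.6% of its 75-base words occur in another gene.

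Of the 2 immunoproteasome members, Psmb9 was called and Psmb8 was not, and the difference between them was not tested. Psmb9, which encodes the subunit LMP2, had 12.5, 60.6, 96.2, 56.6 and 57.2 normalized counts in juvenile and 137, 155, 303 and 352 in adult libraries. The ages did not overlap, and adult replicates 3 and 4 were well above the other adult libraries. These values rest on 11 to 72 reads per juvenile and 148 to 448 reads per adult library. The log2 fold change of -2.06 ± 0.53 (SE, edgeR, adjusted p = 0.0477) was the largest in size of the 10 members, 4.18-fold higher in adult mice. Psmb9 (ENSMUSG00000096727, chr17:34181987-34187764) shares 212 exon bases with Tap1 on the opposite strand. The call was lost when any 1 of 7 libraries was left out, all but adult replicates 1 and 2, with adjusted p-values of 0.0539 to 0.117 (edgeR).

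Psmb8, which encodes LMP7, had 365, 368, 419, 353 and 283 normalized counts in juvenile and 739, 311, 697 and 966 in adult libraries. Adult replicate 2 lay among the juvenile libraries and the other adult libraries above them. Psmb8 was not called (log2 fold change -0.92 ± 0.28 SE, edgeR, adjusted p = 0.0923). Without adult replicate 2 it was called, with a log2 fold change of -1.18 ± 0.21 (SE, edgeR, adjusted p = 0.00986). Psmb8 (ENSMUSG00000024338, chr17:34197721-34201454) shares 498 exon bases with the antisense gene Gm20496.

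In the immunoproteasome, LMP7, LMP2 and the Psmb10 product take the places of the constitutive subunits encoded by Psmb5, Psmb6 and Psmb7. Counts of the first were therefore set against counts of the second within each library, where scaling between libraries cancels. These ratios were not corrected for gene length. Psmb9 counts were 0.810%, 3.58%, 6.21%, 4.06% and 5.37% of Psmb6 counts in juvenile and 7.85%, 11.2%, 17.8% and 24.03% in adult libraries. Every adult ratio was above every juvenile ratio. On the log2 scale the difference was -2.06 (juvenile minus adult), with p = 0.00794 in a two-sided exact permutation test, the smallest p that 5 against 4 libraries allow (0.0238 adjusted over the 3 ratios).

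Psmb8 counts were 32.1% to 46.5% of Psmb5 counts in juvenile and 79.5%, 23.4%, 55.0% and 71.8% in adult libraries. This ratio overlapped between the ages (log2 difference -0.41, two-sided exact permutation test, p = 0.270, adjusted p = 0.270). Psmb10 counts were 65.1% to 99.5% of Psmb7 counts in juvenile and 159%, 151%, 74.6% and 97.2% in adult libraries, which also overlapped (log2 difference -0.47, two-sided exact permutation test, p = 0.119, adjusted p = 0.179).

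**Figure D3:**
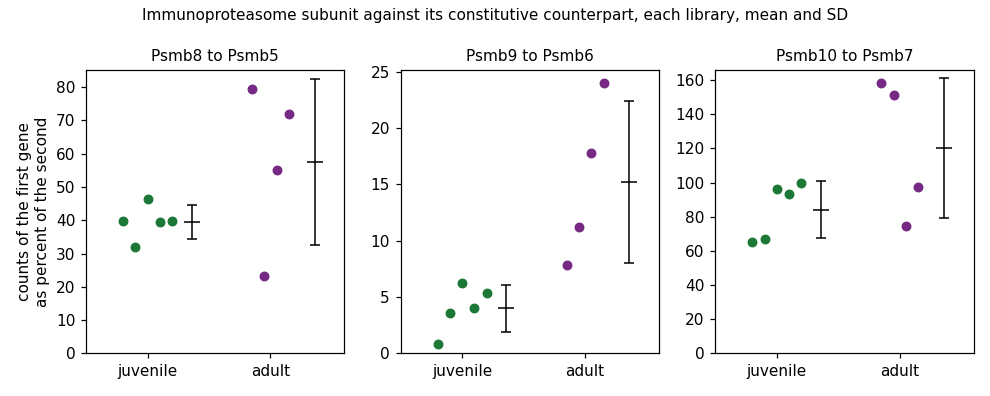
Counts of each immunoproteasome subunit as a percentage of the counts of its constitutive counterpart (y axis, from 0) in 5 juvenile (green) and 4 adult (purple) libraries, with the mean and SD as black marks and bars. Only Psmb9 to Psmb6 separates the ages, with at most 6.21% in juvenile and at least 7.85% in adult libraries.

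Nlrc5, the transactivator of class I genes (ENSMUSG00000074151, chr8:94434356-94527272), was the least abundant member per kilobase, with 1.40 ± 0.70 CPM (SD, n = 5) in juvenile and 3.09 ± 0.997 CPM (SD, n = 4) in adult mice. Normalized counts were 61.4, 47.9, 139, 53.0 and 71.8 in juvenile and 140.0, 137, 137 and 245 in adult libraries. Juvenile replicate 3 reached the level of 3 adult libraries, so the ages overlapped. Nlrc5 was not called (log2 fold change -1.14 ± 0.44 SE, edgeR, adjusted p = 0.189).

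The rest of the pathway was covered by a list of 66 further genes in 9 groups, of which 51 were tested. Of these 51 genes, 1 was called higher in adult mice (H2-Q6) and 1 higher in juvenile mice (Cd1d1), and their median log2 fold change was -0.12. Over all genes tested, 1.89% were called higher in adult and 1.99% in juvenile mice, so the calls in this list were near the general share. Among other class I heavy chains, 9 of 14 were tested, and all 9 had a negative log2 fold change with a median of -0.70. H2-Q6, a nonclassical heavy chain, had 39.9 normalized counts on average in juvenile and 186 in adult mice (log2 fold change -2.21 ± 0.53 SE, edgeR, adjusted p = 0.038). In transcripts of H2-Q6, 21.1% of the 75-base words occur in another gene, so its value is uncertain. Its neighbour H2-Q7 missed the threshold, at 115 and 331 normalized counts (log2 fold change -1.52 ± 0.40 SE, edgeR, adjusted p = 0.0541). H2-Q7 is named for its closeness to H2-Q6 and was picked after its values were seen. The call of H2-Q6 was lost in 7 of 9 fits that left out 1 library, all but those without juvenile replicate 2 or adult replicate 2, with adjusted p-values of 0.0569 to 0.101 (edgeR).

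Cd1d1 presents lipids to natural killer T cells and also pairs with beta-2-microglobulin. It went the other way, with 1139 normalized counts on average in juvenile and 559 in adult mice (log2 fold change 1.03 ± 0.24 SE, edgeR, adjusted p = 0.0348), and the ages did not overlap. Its call was also lost in 7 of 9 such fits, all but those without juvenile replicate 2 or adult replicate 3, with adjusted p-values of 0.0541 to 0.0899 (edgeR). Of the other class I-like genes tested, Mr1, Fcgrt and Hfe were not called.

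General parts of the pathway had no calls in edgeR. In each group the gene with the most normalized counts, not corrected for length, is given first, and other genes were added after their values were seen. Of 4 immunoproteasome partners and activator subunits 3 had a negative log2 fold change, with Psme2 at -0.33 ± 0.22 (SE). Psme1 at -0.53 ± 0.17 (SE, edgeR, adjusted p = 0.106) and Psmb10 at -0.52 ± 0.21 (SE, edgeR, adjusted p = 0.205) were not called, yet every adult library lay above every juvenile library for both. Of the 3 constitutive catalytic subunits, Psmb6 had a log2 fold change of -0.12 ± 0.17 (SE) and Psmb5, the higher per kilobase, one of -0.41 ± 0.18 (SE, edgeR, adjusted p = 0.265). For the 7 peptide-trimming enzymes the median log2 fold change was -0.04, with Nrd1 at -0.08 ± 0.23 (SE). The widest values among them were those of Erap1 at 0.99 ± 0.64 (SE, edgeR, adjusted p = 0.490) and Lap3 at 0.93 ± 0.41 (SE, edgeR, adjusted p = 0.259). For the 6 chaperones of the loading complex the median was -0.03, with calreticulin (Calr) at -0.23 ± 0.14 (SE).

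Regulators upstream of class I genes were likewise not called. The 13 transcription regulators had a median log2 fold change of -0.08, and the interferon-responsive factor Irf1, with the most normalized counts, had 0.31 ± 0.36 (SE). Genes of this group lay on both sides of 0, with Irf9, a part of the interferon-activated ISGF complex, at -1.20 ± 0.44 (SE, edgeR, adjusted p = 0.163) and Irf8 at -1.06 ± 0.51 (SE, edgeR, adjusted p = 0.310). Rela, a subunit of NF-kappaB, was at 0.64 ± 0.22 (SE, edgeR, adjusted p = 0.129), with every juvenile library above every adult library. The 4 interferon receptor chains had a median of -0.04, with Ifngr1 at 0.12 ± 0.17 (SE) and Ifnar1 at 0.97 ± 0.34 (SE, edgeR, adjusted p = 0.135). The other chains went the other way, with Ifngr2 at -0.20 ± 0.30 (SE) and Ifnar2 at -0.36 ± 0.21 (SE, edgeR, adjusted p = 0.422). For Ifnar2 every adult library lay above every juvenile library. Of 9 receptors for class I, 1 was tested, the inhibitory receptor Pirb, with 12.5 normalized counts on average in juvenile and 48.0 in adult mice (log2 fold change -1.93 ± 0.75 SE, edgeR, adjusted p = 0.190). The co-receptor Cd8a, which marks the T cells that read class I, had 0 counts in all 5 juvenile libraries and at most 2 counts in an adult library. Over all 51 genes, 11 had an unadjusted p under 0.05, 7 of them higher in adult and 4 higher in juvenile mice. The share of all tested genes at this unadjusted threshold is not given here, so these counts cannot be set against it.

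**Figure D4:**
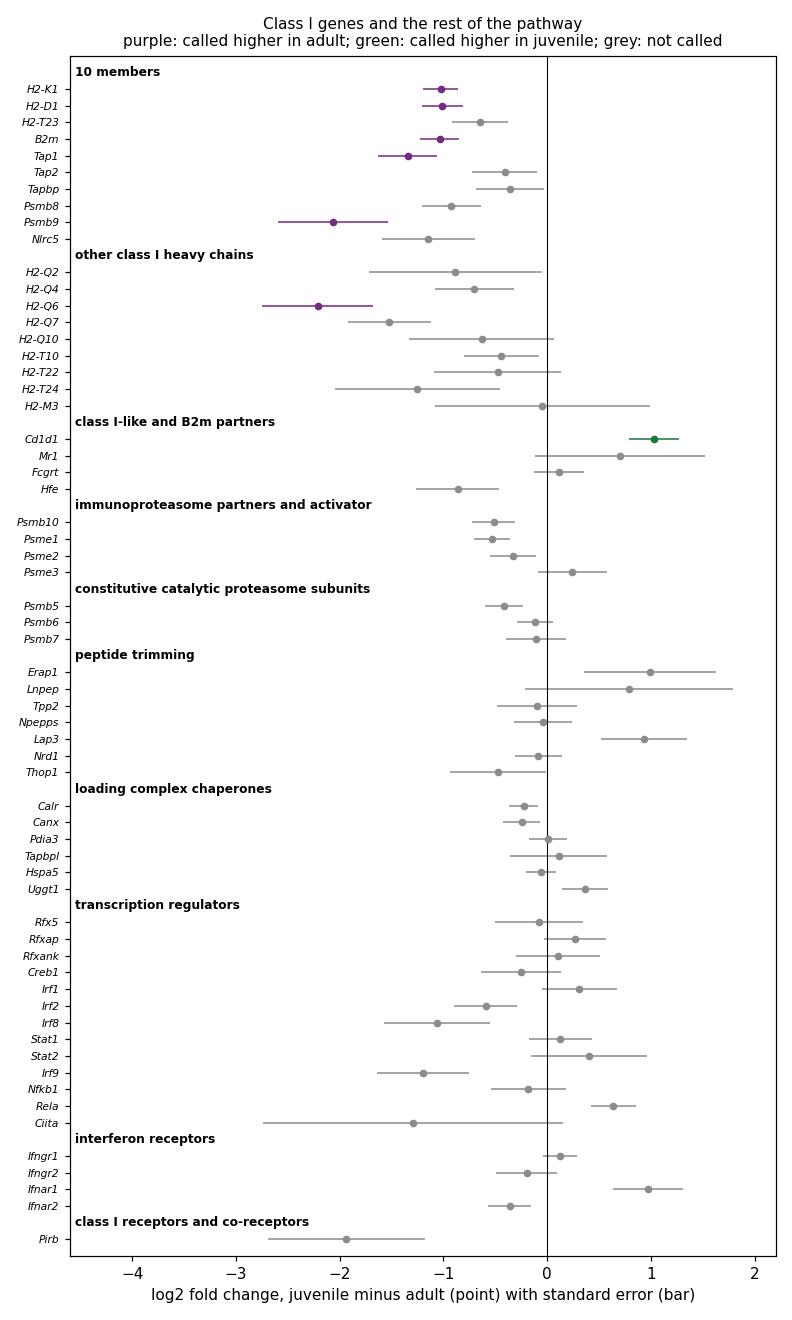
Log2 fold changes (x axis, juvenile minus adult) with standard errors for the 10 members and the 51 tested genes of the rest of the pathway. Purple marks genes called higher in adult, green genes called higher in juvenile mice and grey genes that were not called, and the members lie to the left of 0 while the chaperones, trimming enzymes and interferon receptors scatter around it.

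Markers of several blood and marrow cell types were also higher in adult libraries. Macrophage markers summed to 563 to 861 CPM in juvenile and 1113 to 1860 CPM in adult libraries, with 2 of 10 tested genes called higher in adult mice (Csf1r and Vcam1). Csf1r and Cd68 made up most of these sums, and without them, a choice made after seeing the data, the sums overlapped at 60.01 to 130.3 CPM in juvenile and 111 to 572 CPM in adult libraries. In adult replicate 2 Adgre1, C1qc, Mrc1 and Cd163 had 0 counts. Mertk was higher in every juvenile than in every adult library but was not called (log2 fold change 1.07 ± 0.41 SE, edgeR, adjusted p = 0.183). B cell markers summed to 188 to 361 CPM in juvenile and 1004 to 1692 CPM in adult libraries. Of 8 tested B cell markers only Cd74 was called, and it is the invariant chain of MHC class II that all antigen-presenting cells express. The sums rested on Cd74. Without it, likewise chosen after seeing the data, the other 9 markers overlapped at 38.4 to 81.7 CPM in juvenile and 32.1 to 238 CPM in adult libraries, with adult replicate 2 below every juvenile library. Of 9 tested neutrophil markers 8 were called, with sums of 13.1 to 77.0 CPM in juvenile and 103 to 4336 CPM in adult libraries. Erythroid markers, of which 7 of 8 were called, summed to 344 to 2434 CPM and 4191 to 34050 CPM.

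Of 3 tested megakaryocyte markers 1 was called, and the list summed to 8.21 to 18.3 CPM in juvenile and 67.7 to 4023 CPM in adult libraries. NK cell markers summed to 0.188 to 8.27 CPM and 46.0 to 98.8 CPM, and Nkg7, the only one tested, was called. Nkg7 had 615, 179, 283 and 288 normalized counts in adult replicates 1 to 4 and at most 13.6 in juvenile libraries. It made up most of the sums of adult replicates 1, 3 and 4, where no other NK marker exceeded 28.7 normalized counts. Eomes had 0 counts in every library. Ncr1, Gzma and Prf1 were highest in adult replicate 2, at 71.3, 121 and 40.9 normalized counts. Klrb1c had counts only in juvenile replicate 2, at 9.04 normalized counts. T cell markers summed to 29.1 to 43.8 CPM in juvenile and 19.7 to 55.1 CPM in adult libraries, with 0 of 3 called in edgeR. Dendritic cell markers also overlapped, at 70.6 to 119 CPM and 59.8 to 97.6 CPM, with 0 of 4 called. Osteoclast markers overlapped at 12952 to 21215 CPM and 16598 to 25625 CPM, with 2 of 8 called higher in adult mice. Adipogenic stroma markers summed to 334 to 478 CPM and 448 to 1237 CPM, with 2 of 8 called higher in adult and 1 higher in juvenile mice. Summed osteoblast markers were at 170345 to 212637 CPM in juvenile and 63226 to 93673 CPM in adult libraries, mostly from Col1a1, Col1a2 and Ibsp, which with Sp7 were the 4 of 10 called higher in juvenile mice. The osteocalcin genes Bglap and Bglap2 were called higher in adult mice.

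The part of these cells in the class I levels was not tested. In adult replicate 2, whose neutrophil markers at 103 CPM came close to the juvenile maximum of 77.0 CPM, the members summed to 4447 CPM. This was the lowest adult value, and it was above the 2942 to 3906 CPM of the juvenile libraries. The other adult libraries summed to 6893 to 8441 CPM. Among adult libraries, macrophage, B cell, erythroid and adipogenic stroma marker sums were also lowest in replicate 2. Endothelial, osteoblast, osteoclast, dendritic cell, T cell, NK cell and megakaryocyte sums were lowest in another adult library.

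**Figure D5:**
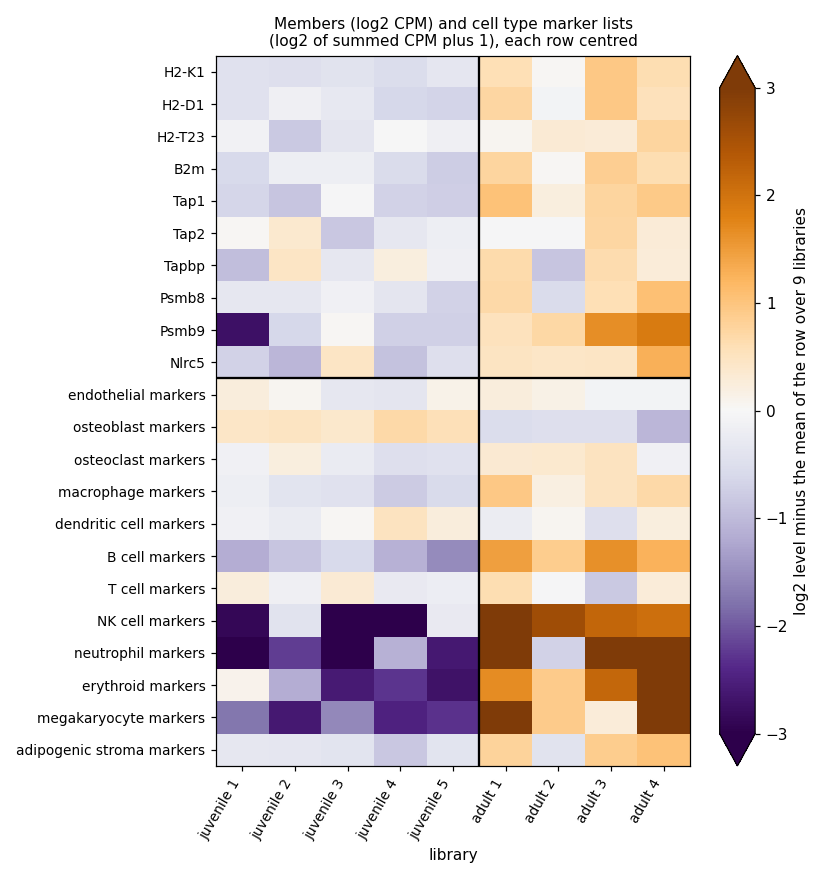
Each row shows the log2 level of a member (top) or of the summed markers of a cell type (bottom) minus its mean over the 9 libraries, with orange above and purple below the mean and the scale limited to 3 in either direction. Members were lowest among adult libraries mostly in replicate 2. The summed macrophage (mostly Csf1r and Cd68), B cell (mostly Cd74), NK cell, neutrophil, erythroid and megakaryocyte markers were higher in every adult than in every juvenile library. Without Csf1r, Cd68 and Cd74 the macrophage and B cell sums overlapped between the ages.

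Across the 9 libraries, B2m, H2-K1 and H2-D1 followed the mean profile of the members most closely. Likeness to this mean, of which each member is a part, was measured as the root mean square difference of centred log2 CPM, which was 0.16 for B2m and for H2-K1 and 0.19 for H2-D1, at ranks 3, 4 and 7 among the 13418 tested genes. Psmb9 was the least alike, at 0.87 and rank 6417. Among other genes the closest were Pop7 (0.13), a subunit of the RNA-processing RNase P complex, Tuba1b (0.16), an alpha-tubulin, and Snrpg (0.18), a spliceosome protein. The measure shares the libraries and their scaling between all genes and carries no test.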

How the data were processed

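The authors deposited 1 table of raw counts per library, on 39179 Ensembl genes, without normalization or filtering. SMART-Seq v4 and Nextera XT libraries were read as 75-base pairs and mapped to mm10 (GRCm38) with TopHat2 and Bowtie2 at default settings. The submitters' processing notes name featureCounts. Its strand and multi-mapping settings and the annotation release are not given in the sources used here.

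Symbols were found for 37607 gene IDs, and positions and exon lengths were taken from GENCODE M21. Ages were compared with edgeR 4.0.16 in R 4.3.3 (filterByExpr, TMM, quasi-likelihood test, Benjamini-Hochberg adjustment over all tested genes). DESeq2 1.42.0 and limma 3.58.1 voom were alternatives. CPM used TMM-scaled library sizes, and log2 CPM a prior count of 2. Log2 ratios used a pseudocount of 0.5. The fits were tested on simulated counts. At these depths 3 counts equal 0.371 to 0.618 CPM, which covers counting error only. The study describes the libraries of an age as from different mice, without giving the mice per library. No pair among 36 agreed within counting noise.

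The members and lists were chosen with earlier results of these data known. Named from the pathway list were all called genes and, in groups without one, the most abundant.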

Additional observations from a re-analysis of the deposited data

Results flagged for a closer look

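In 4 of 26 sets of 4 or 5 libraries, 1 library lay far outside the rest by Dixon's test. This test divides its distance to the nearest library by the full range. By chance 1.3 such sets would be expected if the sets were independent. The sets share libraries and genes, so this number is only a rough guide. Juvenile replicate 3 had the highest Tap1 level, with 204 normalized counts where the remaining juvenile libraries had 114 to 133 (Dixon's ratio 0.788). The same library had 139 normalized counts of Nlrc5, where the remaining juvenile libraries had 47.9 to 71.8 (Dixon's ratio 0.737). Nlrc5 was also high in adult replicate 4, with 245 normalized counts where the remaining adult libraries had 137 to 140.0 (Dixon's ratio 0.975). Juvenile replicate 1 had a low log2 ratio of Psmb9 to Psmb6 of -6.88, where the remaining juvenile libraries had -4.79 to -4.00 (Dixon's ratio 0.724), and this value rests on 11 reads of Psmb9.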

How the results depend on the processing

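All log2 fold changes of the 10 members stayed negative in each of 19 alternatives. Members called higher in adult mice numbered 5 in edgeR with TMM, 6 with DESeq2's default settings, 4 with limma voom, and 3 to 6 when 1 library was left out. H2-K1, H2-D1 and B2m were called in each of these, and in both of the following they were not. The first was the replicate block over replicates 1 to 4. The second left out juvenile replicates 4 and 5, in which Y-linked counts exceeded those of Xist (7 libraries). In both, 0 members were called in edgeR, while 6 and 7 had an unadjusted p under 0.05. The share of all tested genes at this unadjusted threshold is not given here. Why the calls were lost was not tested. The block also left out juvenile replicate 5, and leaving that library out without a block gave 3 calls. Deviations of same-numbered libraries correlated at -0.03 to 0.03, and those of differently numbered libraries at -0.03 to 0.03 as well. Correlations this small cannot show whether same-numbered libraries shared a batch.

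Pathway genes called higher in adult mice numbered 1 in edgeR with TMM, 3 with library totals alone, 5 with DESeq2, 2 with at least 10 counts in every library, 0 with limma voom, 0 with the replicate block and 0 with the 7 libraries. They ranged from 0 to 2 with 1 library left out. Those higher in juvenile mice numbered 1, 2 with DESeq2, and 0 with library totals alone, the replicate block or the 7 libraries, with 0 to 1 when 1 library was left out. At an unadjusted p under 0.05, limma voom had 5 pathway genes higher in adult mice, the block 3 and the 7 libraries 5. For these fits too, the share of all tested genes at this threshold is not given. Over all genes 520 were called, 1492 with DESeq2, 81 with the block, 73 with the 7 libraries and 262 to 651 with 1 library left out. Of the calls 48.7% were higher in adult mice, 70.9% with library totals alone and 38.9% with limma voom, which moved the median log2 fold change of all genes by -0.17 and 0.11.

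The log2 ratio difference of Psmb8 to Psmb5 was -0.79 to -0.20 with 1 library left out (exact permutation p = 0.0179 to 0.607, the first without adult replicate 2). For Psmb10 to Psmb7 it was -0.68 to -0.32 (exact permutation p = 0.0357 to 0.321, the first without adult replicate 3). Values of Psmb9 are limited by depth.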
